A study of Homo sapiens with 8 samples.

Results

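Transcripts of IGFBP3 and 9 other genes of the insulin-like growth factor (IGF) axis were described in a human prostate cancer cell line and in derivatives of it grown in animals. The genes were the binding proteins IGFBP3, IGFBP2, IGFBP4, IGFBP5 and IGFBP6, the receptors IGF1R, IGF2R and INSR, and the receptor substrates IRS1 and IRS2. Every probe that the array's platform annotation assigned to one of these symbols was taken, which gave 12 probes for the 10 genes, of 20046 genes on 30112 probes with 1 gene symbol and of 47320 probes in all. IGFBP3 and IGFBP5 had 2 probes each and the other 8 genes had 1 each.

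22Rv1 is an established line from a human prostate carcinoma xenograft that had relapsed after castration of the host, and 22Rv1-Luc2 is the parental line used here, named for a luciferase reporter. Total RNA of 4 groups was hybridised to single-colour Illumina bead arrays, with 2 arrays per group and 8 arrays in all: the metastatic derivatives M3-2 and M3-1, the primary tumour derivative PT, and the parental 22Rv1-Luc2. All derivatives had been propagated in vivo, and the labels give no treatment or engineered change beyond the reporter name. The sources used here do not name the metastatic sites, the host animals or their number, or what "M3" stands for. Nor do they say whether the paired arrays of a group are 2 cultures or 1, so a p-value here covers array-to-array spread that may be technical, and M3-1 and M3-2 are each 1 line.

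IGF1 and IGF2 signal through the receptor tyrosine kinase IGF1R and, together with insulin, through INSR. The activated receptors phosphorylate the docking proteins IRS1 and IRS2, which recruit PI3 kinase and so activate AKT, while SHC and GRB2 couple the receptors to RAS and the MAP kinases. The IGFBPs are secreted carriers that hold IGFs away from their receptors until proteases cleave them, and IGF2R takes up IGF2 for breakdown. IGFBP3 is the main carrier in blood; in prostate cells it is known as a growth-restraining protein that can also act without binding IGF, and the kallikreins that prostate epithelium secretes can cleave it.

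Values are the deposited log2 intensities, on which a difference of 1 is a 2-fold change; their lowest value was 5.32 and not near 0, so folds of dim probes are understated. A probe was taken as above background where it exceeded 6.53 on at least 2 of the 8 arrays, which held for 16853 named probes, and among them for 8 of the 12 IGF axis probes, from 7 genes. The members had been chosen with their differences from 22Rv1-Luc2 known, so those differences are given as a description without a test. Differences among the derivatives were tested with limma over all 16853 probes. Each is called where its p, adjusted by Benjamini-Hochberg, lay below 0.05. On this scale the 2 arrays of a group had an SD of 0.160 in M3-2, 0.103 in M3-1, 0.142 in PT and 0.218 in 22Rv1-Luc2. The number of arrays limits the precision throughout. In bulk RNA, fewer cells with a transcript and less transcript per cell cannot be told apart.

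The labelled cell type was checked against its markers, secreted and surface proteins of the prostate and luminal keratins. Of 11 prostate epithelial markers on the array, 10 were above background on both arrays in every group. Their summed linear intensity was 23768 to 25397 in M3-2, 21537 to 22394 in M3-1, 23125 to 24096 in PT and 22325 to 22409 in 22Rv1-Luc2. Of the 10 genes tested, 3 were higher and 2 lower in M3-2 than in 22Rv1-Luc2 (11.6% of all genes were called). In M3-1 2 were higher and 1 lower (9.34%), and in PT 1 higher and 1 lower (6.22%). In M3-2 KRT18 rose 2.15-fold (limma adjusted p = 9.3e-05), FOLH1, the antigen PSMA, 2.78-fold (0.000324) and KRT8 1.99-fold (0.000244). The 2 genes lower in M3-2 were named after their values were seen. They were the androgen-regulated protease gene TMPRSS2, 1.88-fold (0.00134), and STEAP1, 1.44-fold (0.0434), whose call was lost in 9 of 16 settings. KRT18 was also called higher in M3-1 and PT, FOLH1 higher and TMPRSS2 lower in M3-1, and STEAP1 lower in PT.

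The promoters of the 3 members whose transcripts differed most between groups, IGFBP3, IRS1 and IRS2, are shown so that their base composition can be read beside the expression values. Each runs from 250 bases before to 50 bases after the annotated gene start (RefSeq, GRCh38.p14, all 3 on the minus strand, written 5′ to 3′ along the gene). IGFBP3 lies at chr7:45921223-45921522, IRS1 at chr2:226799771-226800070 and IRS2 at chr13:109786534-109786833. Capitals mark matches to the GC box GGGCGG on either strand (CCGCCC on the printed one); neighbouring matches in IRS2 overlap.
IGFBP3: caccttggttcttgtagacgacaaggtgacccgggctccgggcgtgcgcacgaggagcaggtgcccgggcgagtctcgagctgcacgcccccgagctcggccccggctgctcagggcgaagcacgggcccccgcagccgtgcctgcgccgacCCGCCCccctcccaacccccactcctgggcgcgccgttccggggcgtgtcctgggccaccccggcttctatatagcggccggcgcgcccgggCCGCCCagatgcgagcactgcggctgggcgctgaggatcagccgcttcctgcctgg
IRS1: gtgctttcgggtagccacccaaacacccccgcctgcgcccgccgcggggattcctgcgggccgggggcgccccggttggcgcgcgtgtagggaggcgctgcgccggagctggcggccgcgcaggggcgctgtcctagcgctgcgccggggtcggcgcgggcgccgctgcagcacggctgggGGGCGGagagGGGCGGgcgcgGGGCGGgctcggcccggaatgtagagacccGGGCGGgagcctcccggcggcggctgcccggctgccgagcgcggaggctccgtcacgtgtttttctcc
IRS2: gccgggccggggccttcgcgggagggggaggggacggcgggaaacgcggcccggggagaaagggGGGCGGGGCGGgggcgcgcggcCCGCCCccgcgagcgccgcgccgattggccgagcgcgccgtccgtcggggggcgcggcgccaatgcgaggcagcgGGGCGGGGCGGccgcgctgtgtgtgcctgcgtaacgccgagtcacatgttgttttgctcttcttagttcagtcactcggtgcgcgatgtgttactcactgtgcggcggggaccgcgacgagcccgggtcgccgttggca
The IGFBP3 promoter held 2 GC boxes, IRS1 4 and IRS2 5, and 45% of 35116 promoters of the same length held at least 1. All 3 were rich in G and C, at 74.7% in IGFBP3, 79.3% in IRS1 and 75.7% in IRS2, against a median of 58.7% over all promoters. CpG dinucleotides numbered 36, 47 and 50, against a median of 14. Of the members not printed, IGF1R (79.7%), IGF2R (78.7%), INSR (78.3%) and IGFBP4 (74.0%) were similarly rich in G and C. IGFBP5 (59.0%), IGFBP6 (61.7%) and the IGFBP2 windows (55.3% to 70.0%) were less so. The richness was thus not particular to the members that differed most. The letters TATAAA, of the forkhead motif TGTTTAC and of the androgen or glucocorticoid receptor half-site AGAACA were searched on both strands. They were found in none of the 3 printed windows and occur in 11.5%, 3.42% and 14.8% of all promoters. These matches describe letters and not binding.

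IGFBP3 was far lower in every derivative than in the parental line, and lowest in M3-1. Its brighter probe (ILMN_1746085) read 8.08 and 8.01 in M3-2, 6.62 and 7.05 in M3-1, and 8.21 and 8.16 in PT, against 12.91 and 12.52 in 22Rv1-Luc2. No derivative array came near a parental array: the gap between the closest PT and 22Rv1-Luc2 arrays was 4.31 on the log2 scale. The level was thus 25.5-fold lower in M3-2 (log2 difference -4.67), 59.0-fold lower in M3-1 (-5.88) and 23.2-fold lower in PT (-4.53) than in 22Rv1-Luc2, each with an SE of 0.17.

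The second IGFBP3 probe (ILMN_2396875) gave the same order. It read 7.58 and 7.52 in M3-2, 6.49 and 6.51 in M3-1, and 7.76 and 7.47 in PT, against 12.19 and 11.93 in 22Rv1-Luc2. Both M3-1 arrays lay under the background level, so only a bound can be given there. The level was 22.8-fold lower in M3-2 (-4.51), at least 46.0-fold lower in M3-1 and 21.8-fold lower in PT (-4.44) than in 22Rv1-Luc2, with an SE of 0.14. An at-least fold sets the bright group against the higher of the dim probe and the lowest signal above background on each array. Across the 8 arrays the 2 probes had r = 0.998, which describes probes of 1 gene on shared arrays.

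**Figure D1:**
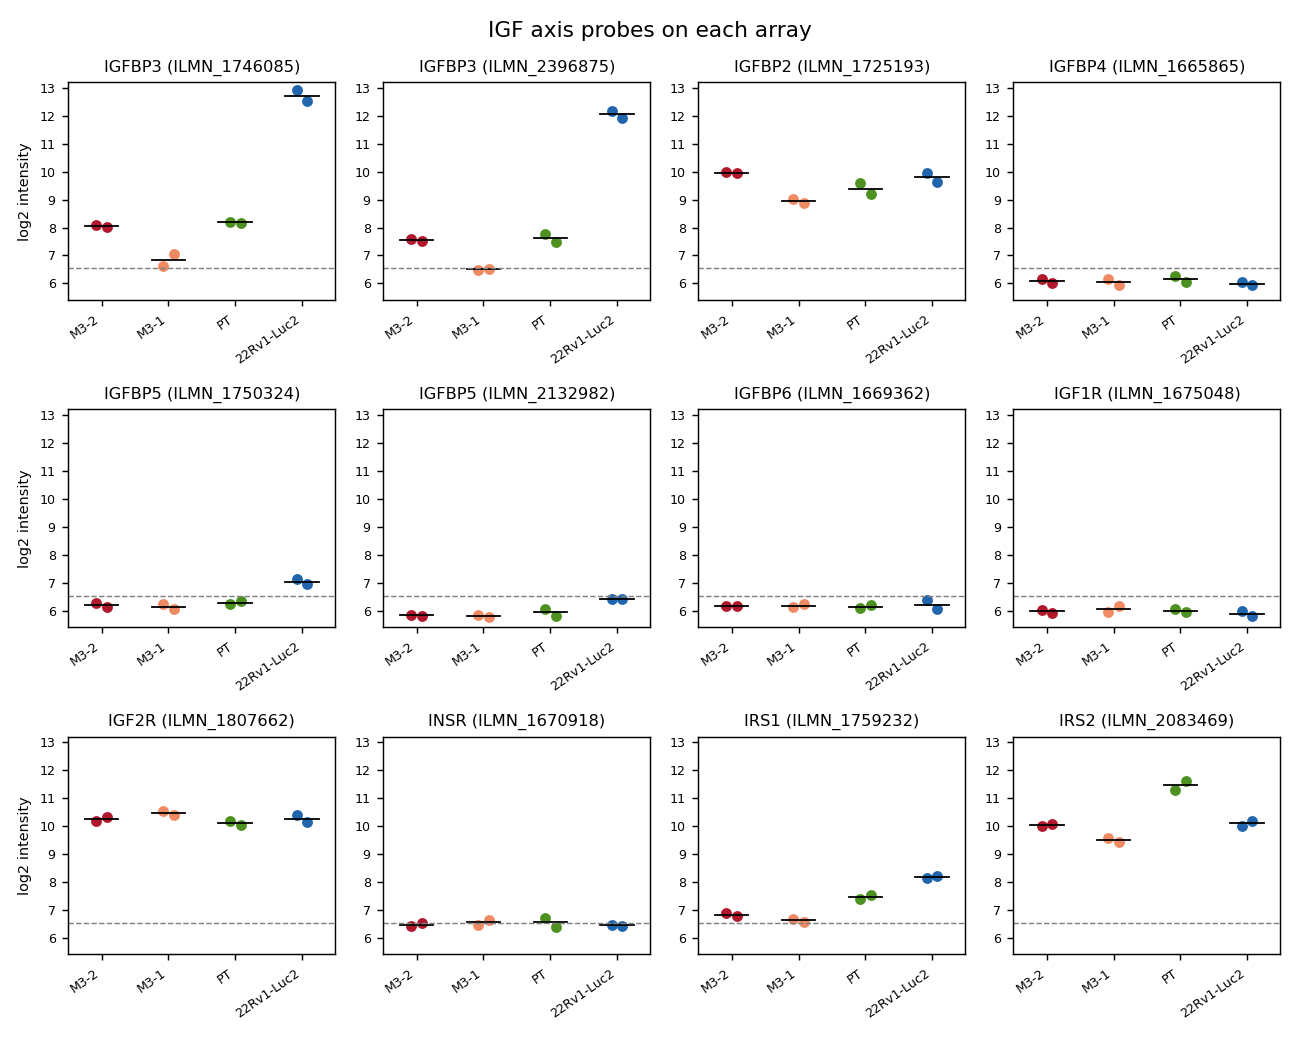
Deposited log2 intensity of each of the 12 IGF axis probes on each array, with M3-2, M3-1, PT and 22Rv1-Luc2 side by side, points for the 2 arrays of a group, a bar for their mean and a dashed line at the background level of 6.53. Both IGFBP3 probes stand far higher in 22Rv1-Luc2 than in the derivatives, while the IGFBP4, IGFBP6 and IGF1R probes lie under the dashed line in every group.

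Among the derivatives, IGFBP3 fell further in M3-1 than in PT or M3-2. On the brighter probe M3-1 was 2.55-fold lower than PT (log2 difference -1.35, SE 0.17, limma adjusted p = 0.000222), and on the second probe at least 2.12-fold lower (adjusted p = 0.000252). M3-2 was 2.31-fold higher than M3-1 on the brighter probe (1.21, adjusted p = 0.00155) and at least 2.02-fold higher on the second (adjusted p = 0.00120). Without M3-1 replicate 1, the lower of the 2 M3-1 arrays, the first of these differences was 0.99 and was no longer called (adjusted p = 0.0512).

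M3-2 and PT were close to each other in IGFBP3. The log2 difference of M3-2 minus PT was -0.14 on the brighter probe (95% interval -0.50 to 0.22, adjusted p = 0.702) and -0.07 on the second (-0.37 to 0.24, adjusted p = 0.844). The IGFBP3 level was therefore lowest in M3-1, higher in M3-2 and PT without a called difference between these 2, and highest in 22Rv1-Luc2.

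IGFBP2, the carrier next in abundance to IGFBP3 in blood and often raised in advanced prostate cancer, did not follow the same order. Its probe read 9.98 and 9.94 in M3-2, 9.03 and 8.89 in M3-1, and 9.59 and 9.20 in PT, against 9.95 and 9.63 in 22Rv1-Luc2. The M3-1 arrays were below all others, while M3-2 overlapped the parental arrays. Relative to 22Rv1-Luc2 the level was 0.17 higher on the log2 scale in M3-2, 0.83 lower in M3-1 (1.78-fold) and 0.40 lower in PT, with an SE of 0.16.

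M3-2 had 2.00-fold more IGFBP2 signal than M3-1 (log2 difference 1.00, adjusted p = 0.00370). The call ended without M3-1 replicate 1, M3-1 replicate 2 or M3-2 replicate 1, where the adjusted p reached 0.0958 at differences between 0.93 and 1.07. M3-2 was also 1.48-fold higher than PT (0.57, adjusted p = 0.0444), a call that held in 9 of 16 settings, with a difference of 0.37 without PT replicate 2. M3-1 minus PT was -0.43 (95% interval -0.77 to -0.10, adjusted p = 0.127).

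IGFBP5, a carrier that binds the extracellular matrix and lies beside IGFBP2 on chromosome 2, was above background in the parental line only. The probe ILMN_1750324 read 6.26 and 6.13 in M3-2, 6.23 and 6.06 in M3-1, and 6.22 and 6.34 in PT, against 7.12 and 6.95 in 22Rv1-Luc2. It was at least 1.42-fold lower in each derivative than in 22Rv1-Luc2. This probe passed the filter on dim probes only through the parental arrays, so it had to read lower in the derivatives. The derivatives gave no order, since all 6 arrays were under background, and M3-2 minus M3-1 was 0.05 (adjusted p = 0.961). The second IGFBP5 probe (ILMN_2132982) was under background on every array, with 5.85 and 5.80 in M3-2, 5.84 and 5.77 in M3-1, and 6.07 and 5.80 in PT, against 6.41 and 6.39 in 22Rv1-Luc2.

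IGFBP4, the carrier that the protease PAPPA cleaves, and IGFBP6, which prefers IGF2, were not above background on any array and were not tested. IGFBP4 read 6.16 and 6.02 in M3-2, 6.17 and 5.94 in M3-1, and 6.27 and 6.04 in PT, against 6.06 and 5.93 in 22Rv1-Luc2. IGFBP6 read 6.17 and 6.18 in M3-2, 6.11 and 6.23 in M3-1, and 6.08 and 6.19 in PT, against 6.36 and 6.05 in 22Rv1-Luc2. The groups overlapped for both.

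The receptors differed little between groups. IGF1R, the kinase through which both IGFs signal, was under background on all arrays: 6.03 and 5.90 in M3-2, 5.93 and 6.16 in M3-1, and 6.06 and 5.94 in PT, against 5.98 and 5.79 in 22Rv1-Luc2. One dim probe does not show that the receptor was absent. INSR lay near the background level, with 6.40 and 6.51 in M3-2, 6.47 and 6.63 in M3-1, and 6.71 and 6.38 in PT, against 6.46 and 6.43 in 22Rv1-Luc2. No INSR difference among the derivatives was called, and M3-2 minus PT was -0.09 (95% interval -0.39 to 0.21, adjusted p = 0.779).

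IGF2R, the scavenger of IGF2, was bright in every group: 10.19 and 10.31 in M3-2, 10.53 and 10.38 in M3-1, and 10.16 and 10.04 in PT, against 10.38 and 10.13 in 22Rv1-Luc2. M3-1 stood highest, but M3-1 minus PT was 0.35 and not called (95% interval 0.06 to 0.64, adjusted p = 0.151). It was called in 2 of 16 settings. Differences from 22Rv1-Luc2 were -0.01 in M3-2, 0.20 in M3-1 and -0.15 in PT.

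The receptor substrates IRS1 and IRS2 changed in different ways. IRS1, the docking protein best known for IGF1R signalling to growth, read 6.90 and 6.76 in M3-2, 6.68 and 6.57 in M3-1, and 7.37 and 7.52 in PT, against 8.13 and 8.20 in 22Rv1-Luc2. The parental arrays were highest, PT next and both metastatic lines lowest, with no overlap between any pair of groups. In each pair 43.1% to 56.2% of all probes above background did not overlap, so this separation adds little. IRS1 was 2.52-fold lower in M3-2 (-1.33), 2.90-fold lower in M3-1 (-1.54) and 1.64-fold lower in PT (-0.71) than in 22Rv1-Luc2, each with an SE of 0.13.

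Against PT, IRS1 fell by 0.62 on the log2 scale in M3-2 (1.54-fold, adjusted p = 0.00859) and by 0.82 in M3-1 (1.77-fold, adjusted p = 0.00117). The M3-2 call ended without PT replicate 2 or M3-2 replicate 2, with differences of -0.54 and -0.55 and an adjusted p of up to 0.109. M3-2 minus M3-1 was 0.21 (95% interval -0.07 to 0.48, adjusted p = 0.686).

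IRS2, the docking protein that FOXO factors induce when AKT is quiet, peaked in the primary tumour derivative. It read 10.004 and 10.06 in M3-2, 9.58 and 9.41 in M3-1, and 11.30 and 11.62 in PT, against 10.001 and 10.19 in 22Rv1-Luc2. The PT arrays were above all others, the M3-1 arrays below all others, and M3-2 overlapped the parental arrays. Relative to 22Rv1-Luc2 the log2 difference was -0.07 in M3-2, -0.60 in M3-1 (1.51-fold lower) and 1.36 in PT (2.57-fold higher), with an SE of 0.14.

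IRS2 fell 2.70-fold in M3-2 (-1.43, adjusted p = 3.66e-05) and 3.90-fold in M3-1 (-1.96, adjusted p = 2.94e-06) relative to PT. Both calls held in all 16 settings. M3-2 minus M3-1 was 0.53 and not called (95% interval 0.22 to 0.84, adjusted p = 0.0947), though it was called in 4 of 16 settings.

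**Figure D2:**
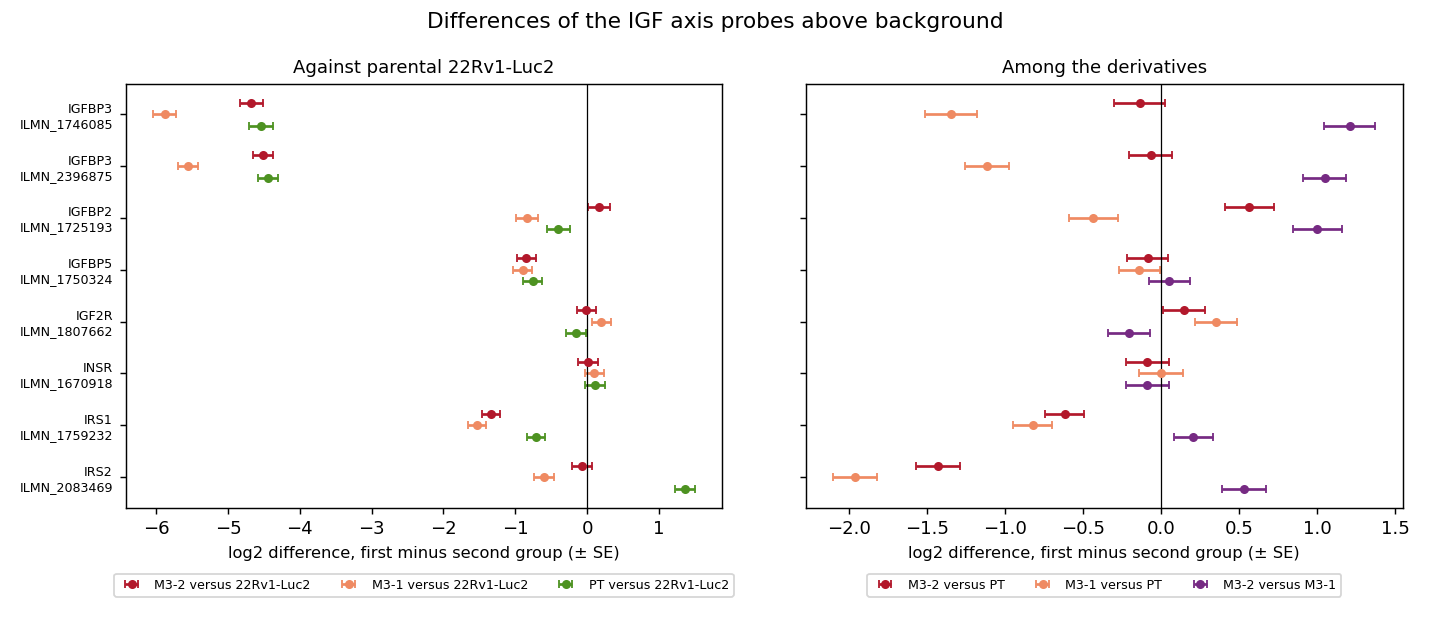
Log2 differences (first group minus second, ± SE) of the 8 IGF axis probes above background, against 22Rv1-Luc2 in the left panel and among the derivatives in the right panel. IGFBP3 lies at -4.44 or lower against 22Rv1-Luc2 in every derivative, and IRS2 has the most negative differences of M3-1 and M3-2 from PT.

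Counted over the 8 probes above background, 3 were called in M3-2 against PT, with 1 higher and 2 lower (7.76% of all 16853 probes were called, 3.8% higher and 3.96% lower). In M3-1 against PT 4 were called, all lower (7.39% of all probes, 3.96% lower), and 2 of these 4 are probes of IGFBP3. In M3-2 against M3-1 3 were called, all higher (1.98% of all probes, 1.15% higher), and 2 of these 3 are probes of IGFBP3. The count for M3-2 against PT was 1 without PT replicate 2 and 1 without M3-2 replicate 2, and that for M3-2 against M3-1 was 1 without M3-1 replicate 1.

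Against 22Rv1-Luc2, the comparison with which the members were chosen, 4 probes were past the same threshold in M3-2 (11.1% of all probes), 6 in M3-1 (8.78%) and 5 in PT (5.8%), or 3 in PT without PT replicate 1. IGFBP5, which passed the filter only through the parental arrays, is among the probes past the threshold in every derivative. Nothing is read from these counts.

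The other genes of the pathway were taken from lists by role, with each gene given by its brightest probe above background. These lists and those of cell type markers were chosen with earlier results of these data known. Adjusted p-values of list genes against 22Rv1-Luc2 therefore serve as a description and not as an independent test. Over all 12370 genes so tested, the share called against 22Rv1-Luc2 was 11.6% in M3-2 (5.62% higher, 6.03% lower), 9.34% in M3-1 (4.13% higher, 5.21% lower) and 6.22% in PT (3.14% higher, 3.08% lower). Against PT it was 8.46% in M3-2 (4.02% higher, 4.45% lower) and 8.12% in M3-1 (3.58% higher, 4.54% lower), and in M3-2 against M3-1 it was 2.19% (1.27% higher, 0.922% lower).

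The ligands were at or near background. IGF1, the growth hormone-dependent ligand, was above background with 1 of its 2 probes, and on the parental arrays only: 6.03 and 5.98 in M3-2, 6.15 and 5.999 in M3-1, and 6.06 and 5.997 in PT, against 6.60 and 6.71 in 22Rv1-Luc2. That probe (ILMN_2056087) was at least 1.09-fold lower in each derivative than in 22Rv1-Luc2. It passed the filter on dim probes only through the group in which it was high, so it had to differ and no test is given. The other IGF1 probe (ILMN_1709613) ran the other way, with 6.26 and 6.36 in M3-2, 6.25 and 6.18 in M3-1, and 6.20 and 6.57 in PT, against 6.09 and 6.08 in 22Rv1-Luc2; 1 PT array was above background. The 2 probes thus disagreed, and no direction is given for IGF1. IGF2 with 3 probes had none above background on any array, and INS had 1 array above it.

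Other secreted proteins with an IGF-binding domain were given by a list of 10 genes, of which 7 were tested. Against 22Rv1-Luc2, 1 was called in M3-2, 1 in M3-1 and 2 in PT, all lower. CCN3, a matricellular protein, read 6.41 and 6.34 in M3-2, 6.83 and 6.74 in M3-1, and 6.57 and 6.56 in PT, against 7.47 and 7.70 in 22Rv1-Luc2. It fell in all 3, by at least 2.07-fold in M3-2 (adjusted p = 2.89e-05), 1.74-fold in M3-1 (0.00113) and 2.03-fold in PT (0.000296). CCN2, a target of YAP and TGF-beta, was called lower in PT than in 22Rv1-Luc2 (1.62-fold, adjusted p = 0.00654), and that call ended without either PT array (adjusted p of up to 0.0692). IGFBP1, the neighbour of IGFBP3 on chromosome 7, read 6.58 and 6.18 in M3-2, 6.59 and 6.30 in M3-1, and 6.23 and 6.24 in PT, against 6.84 and 6.72 in 22Rv1-Luc2.

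Proteases that cleave IGFBPs, with their inhibitors, made a list of 21 genes, of which 10 were tested. Against 22Rv1-Luc2, 2 were higher and 2 lower in M3-2, 2 higher and 2 lower in M3-1, and 1 lower in PT. PAPPA is 1 of the 2 higher genes in each metastatic line, and it passed the filter only through the M3 arrays. STC2, a secreted glycoprotein that inhibits PAPPA, was higher in both metastatic lines than elsewhere. It read 10.02 and 9.93 in M3-2, 10.06 and 10.20 in M3-1, and 8.65 and 8.44 in PT, against 8.45 and 8.44 in 22Rv1-Luc2. STC2 rose 2.88-fold in M3-2 (adjusted p = 4.43e-06) and 3.21-fold in M3-1 (2.24e-06) relative to 22Rv1-Luc2, and 2.68-fold in M3-2 (1.59e-05) and 2.99-fold in M3-1 (6.63e-06) relative to PT.

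PAPPA, the protease that STC2 inhibits, was picked out after its values were seen. It was dim at 6.91 and 6.75 in M3-2 and 6.60 and 6.83 in M3-1, and under background at 6.17 and 6.06 in PT and 6.28 and 6.19 in 22Rv1-Luc2. PAPPA was at least 1.23-fold higher in M3-2 than in PT, and, having passed the filter only through the M3 arrays, it is given with no test. HTRA1, a secreted serine protease that can cleave IGFBP5, fell 1.87-fold in M3-2 (adjusted p = 0.000316), 1.91-fold in M3-1 (0.000322) and 1.62-fold in PT (0.00467) relative to 22Rv1-Luc2. The PT call of HTRA1 ended without PT replicate 1 (adjusted p = 0.0525). KLK4, a prostate kallikrein, was 1.35-fold lower in M3-2 (adjusted p = 0.0339) and 1.82-fold lower in M3-1 (0.000408) than in 22Rv1-Luc2. The M3-2 call of KLK4 was lost in 9 of 16 settings.

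Partners that bind IGFBP3 at the cell surface, in the secretory route or in the nucleus made a list of 14 genes, of which 10 were tested. In each metastatic line 1 was higher and 2 were lower, against 22Rv1-Luc2 and against PT alike, and limma called 0 in PT against 22Rv1-Luc2 (0 at an unadjusted p below 0.05) and 0 in M3-2 against M3-1 (1 at an unadjusted p below 0.05). RXRA, the nuclear retinoid receptor to which IGFBP3 binds, read 7.25 and 7.19 in M3-2, 7.12 and 7.32 in M3-1, and 8.34 and 8.39 in PT, against 8.43 and 8.09 in 22Rv1-Luc2. RXRA fell 2.06-fold in M3-2 (adjusted p = 0.000265) and 2.05-fold in M3-1 (0.000348) relative to 22Rv1-Luc2, and 2.22-fold (0.000237) and 2.21-fold (0.000232) relative to PT. VDR, the vitamin D receptor and a partner of RXRA, was under background in PT and 22Rv1-Luc2 and at least 1.47-fold higher than either in M3-2 and at least 1.503-fold in M3-1. VDR passed the filter only through the M3 arrays and is likewise given with no test, though it is the 1 higher gene in these counts. HSPA5, the endoplasmic reticulum chaperone also known as GRP78, was 1.47-fold lower in M3-2 (adjusted p = 0.00933) and 1.53-fold lower in M3-1 (0.00626) than in 22Rv1-Luc2, calls lost in 2 of 16 settings each.

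**Figure D3:**
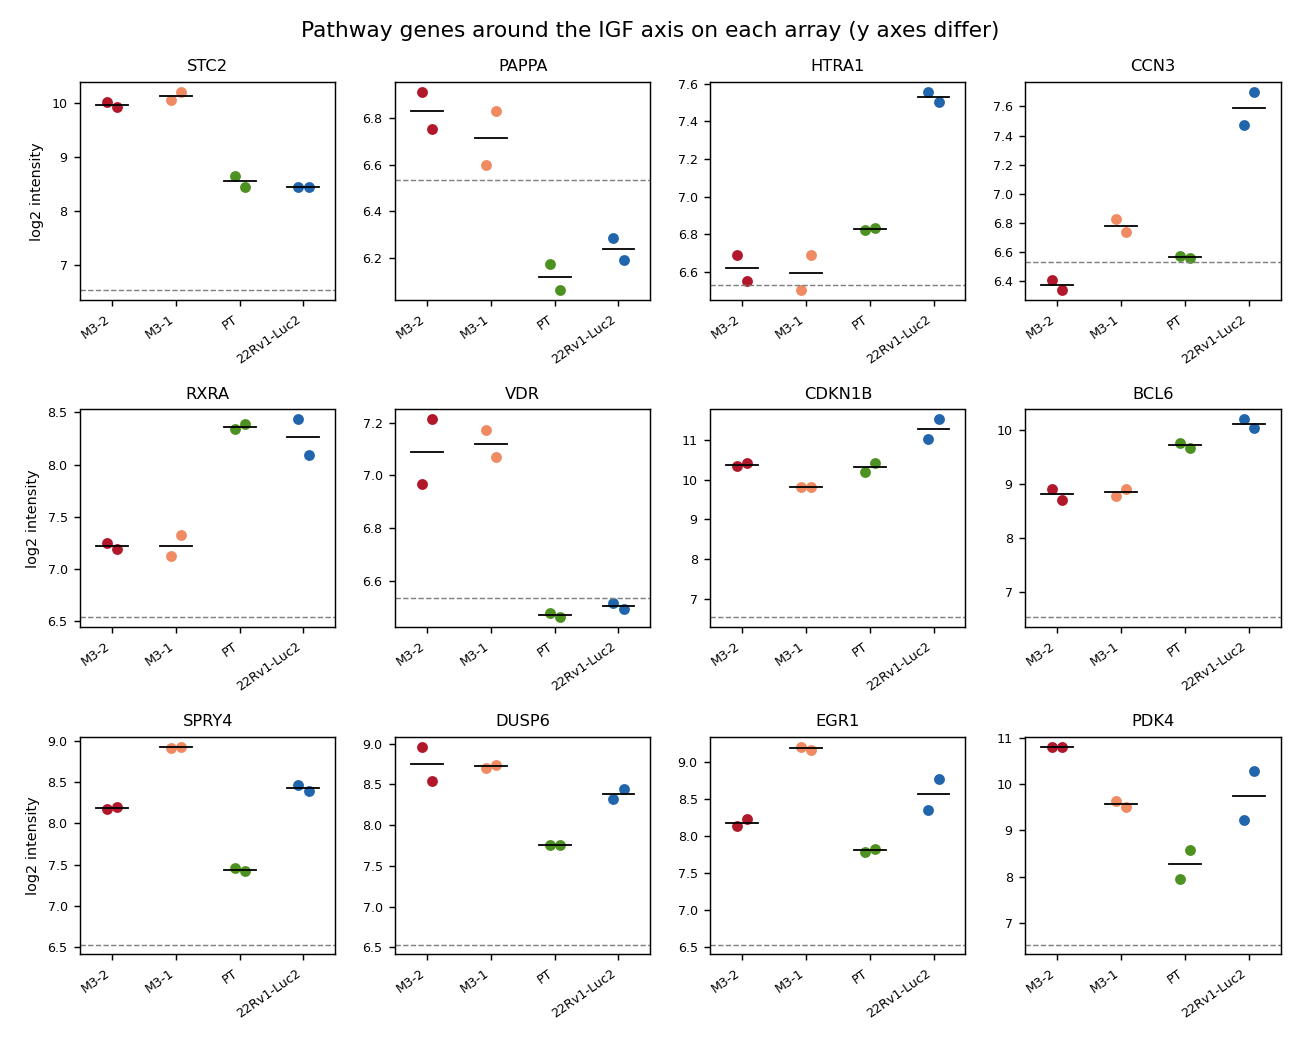
Log2 intensities of genes of the IGF pathway lists on each array, with M3-2, M3-1, PT and 22Rv1-Luc2 side by side, points for the 2 arrays of a group and a bar for their mean. STC2 lies at 9.93 or higher in both metastatic lines and at 8.65 or lower in PT and 22Rv1-Luc2, while RXRA is lower in both metastatic lines. The dashed line is the background level of 6.53.

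Adaptors of the insulin and IGF receptors beyond IRS1 and IRS2 made a list of 23 genes, of which 18 were tested. Relative to PT, 1 was higher in M3-2 (8.46% of all genes were called), and 2 were higher and 1 lower in M3-1 (8.12%). GRB10, an adaptor that restrains both receptors, was 1.72-fold higher in M3-1 than in PT (adjusted p = 0.00258), and the call ended without M3-1 replicate 1 (0.0617). GRB14, its relative, was 1.86-fold higher in M3-2 than in PT (adjusted p = 0.00689) and not called in 2 of 16 settings. SOCS2, an inhibitor of growth hormone signalling, read 7.89 and 7.80 in M3-2, 7.16 and 7.15 in M3-1, and 7.77 and 7.75 in PT, against 7.41 and 7.35 in 22Rv1-Luc2. SOCS2 was the 1 gene of this list called in M3-2 against M3-1 (1.61-fold higher, adjusted p = 0.00699), lost without either M3-1 array or M3-2 replicate 1 (up to 0.130).

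The PI3K, AKT and mTOR list held 32 genes, of which 24 were tested. Relative to 22Rv1-Luc2, 3 were called in M3-2, all higher, with 2 higher and 1 lower in M3-1, and 1 lower in PT. Over all genes 11.6%, 9.34% and 6.22% were called, so these counts were near the general share and nothing is read from them. The median log2 difference of the 24 was 0.12 in M3-2, 0.08 in M3-1 and -0.03 in PT, and that of all genes was -0.0045, 0.0035 and 0.0039. DEPTOR, an inhibitor of mTOR, was 1.47-fold higher in M3-2 (adjusted p = 0.0157) and 1.53-fold higher in M3-1 (0.00922) than in PT. EIF4EBP1, the translation repressor that mTOR switches off, was 1.53-fold higher in M3-2 (0.0357) and 1.56-fold higher in M3-1 (0.0280) than in PT. INPP4B, a phosphatase that opposes PI3 kinase, was 1.63-fold lower in PT than in 22Rv1-Luc2 (0.00742). Each of these 5 calls was lost when PT replicate 1 was left out, and also in other settings, with an adjusted p of up to 0.128, 0.151, 0.194, 0.380 and 0.0807 in that order.

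Of 25 genes on the RAS and MAPK list, which holds kinases, immediate early factors and inhibitors of the cascade, 19 were tested, and 5 were called in M3-2 and 5 in M3-1 relative to PT, all higher. The inhibitors on it did not all pass, and 2 of those that did not are named here after their values were seen: SPRY2 differed by -0.06 in M3-2 and -0.10 in M3-1 (adjusted p = 0.856 and 0.767), and SPRED2 by 0.29 in both (0.239 and 0.263). SPRY4, an inhibitor of RAS activation by receptor kinases, read 8.18 and 8.20 in M3-2, 8.91 and 8.93 in M3-1, and 7.46 and 7.43 in PT, against 8.47 and 8.39 in 22Rv1-Luc2. SPRY4 rose 1.68-fold in M3-2 (adjusted p = 0.00157) and 2.79-fold in M3-1 (5.69e-06) relative to PT. DUSP6, the phosphatase of ERK, rose 2.00-fold in M3-2 (0.000855) and 1.95-fold in M3-1 (0.00105) relative to PT. SPRY1, a relative of SPRY4 picked out after its values were seen, rose 1.93-fold in M3-2 (0.000334) and 1.78-fold in M3-1 (0.000867) relative to PT. EGR1, an immediate early factor induced by ERK, rose 2.61-fold in M3-1 relative to PT (5.83e-05) and was not called in M3-2 relative to PT (0.152). In M3-2 EGR1 was 2.01-fold lower than in M3-1 (adjusted p = 0.0023), a call that ended without M3-1 replicate 1 (0.0591).

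Relative to 22Rv1-Luc2, 1 of the 19 RAS and MAPK genes was higher and 5 were lower in PT. SPRY4 was 1.98-fold lower there (adjusted p = 0.000210), EGR1 1.69-fold (0.00742) and DUSP6 1.54-fold (0.0230). The EGR1 and DUSP6 calls were lost in 3 and 6 of 16 settings. Against 22Rv1-Luc2, DUSP6 was called in neither metastatic line (0.136 in M3-2, 0.212 in M3-1). SPRY4 and EGR1 were called higher in M3-1 (0.0178 and 0.0158) but not in M3-2 (0.262 and 0.133), and SPRY1 was called higher in both lines. The same list had 2 higher and 3 lower in M3-2, and 4 higher and 2 lower in M3-1. These comparisons share the 22Rv1-Luc2 or the PT arrays.

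FOXO factors and their target genes, which AKT restrains, include regulators of the cell cycle and of mitochondria. Of 23 genes 20 were tested. Relative to 22Rv1-Luc2, 1 was higher and 6 lower in M3-2, 6 were lower in M3-1 and 3 were lower in PT, with median differences of -0.30, -0.36 and -0.21 over the list. CDKN1B, the cell cycle inhibitor p27, read 10.35 and 10.41 in M3-2, 9.81 and 9.81 in M3-1, and 10.19 and 10.42 in PT, against 11.03 and 11.51 in 22Rv1-Luc2. CDKN1B fell 1.86-fold in M3-2 (adjusted p = 0.00217), 2.75-fold in M3-1 (4.85e-05) and 1.95-fold in PT (0.00253). BNIP3, a mitophagy receptor also induced by hypoxia, fell 2.57-fold in M3-2 (2.75e-05) and 2.46-fold in M3-1 (4.75e-05) relative to 22Rv1-Luc2.

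BCL6, a transcriptional repressor picked out after its values were seen, fell 2.47-fold in M3-2 (2.23e-05) and 2.41-fold in M3-1 (3.3e-05) relative to 22Rv1-Luc2.

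PDK4, the kinase that inhibits pyruvate dehydrogenase, was the 1 gene of the FOXO list called higher in M3-2 than in 22Rv1-Luc2. It read 10.81 and 10.81 in M3-2, 9.64 and 9.51 in M3-1, and 7.96 and 8.59 in PT, against 9.23 and 10.28 in 22Rv1-Luc2. The PT and parental replicates of PDK4 were far apart. PDK4 rose 5.82-fold in M3-2 relative to PT (adjusted p = 6.99e-05). It was 2.08-fold higher in M3-2 than in 22Rv1-Luc2 (0.0234), a call that ended without 22Rv1-Luc2 replicate 1 or either M3-2 array (up to 0.146). IRS2, a FOXO target in its own right, was highest in PT, where PDK4 was lowest.

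Known inducers of IGFBP3 and their targets, which cover p53, vitamin D, androgen and TGF-beta input, made a list of 19 genes. Of the 11 tested, 2 were lower in M3-2, 1 was lower in M3-1 and limma called 0 in PT relative to 22Rv1-Luc2, with 1 at an unadjusted p below 0.05. FKBP5, a chaperone induced by androgen and glucocorticoid receptors, fell 1.75-fold in M3-2 (adjusted p = 0.00194) and 2.08-fold in M3-1 (0.000290). SMAD7, the inhibitor induced by TGF-beta, fell 1.77-fold in M3-2 (0.00352), a call that ended without M3-2 replicate 2 (0.0531).

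**Figure D4:**
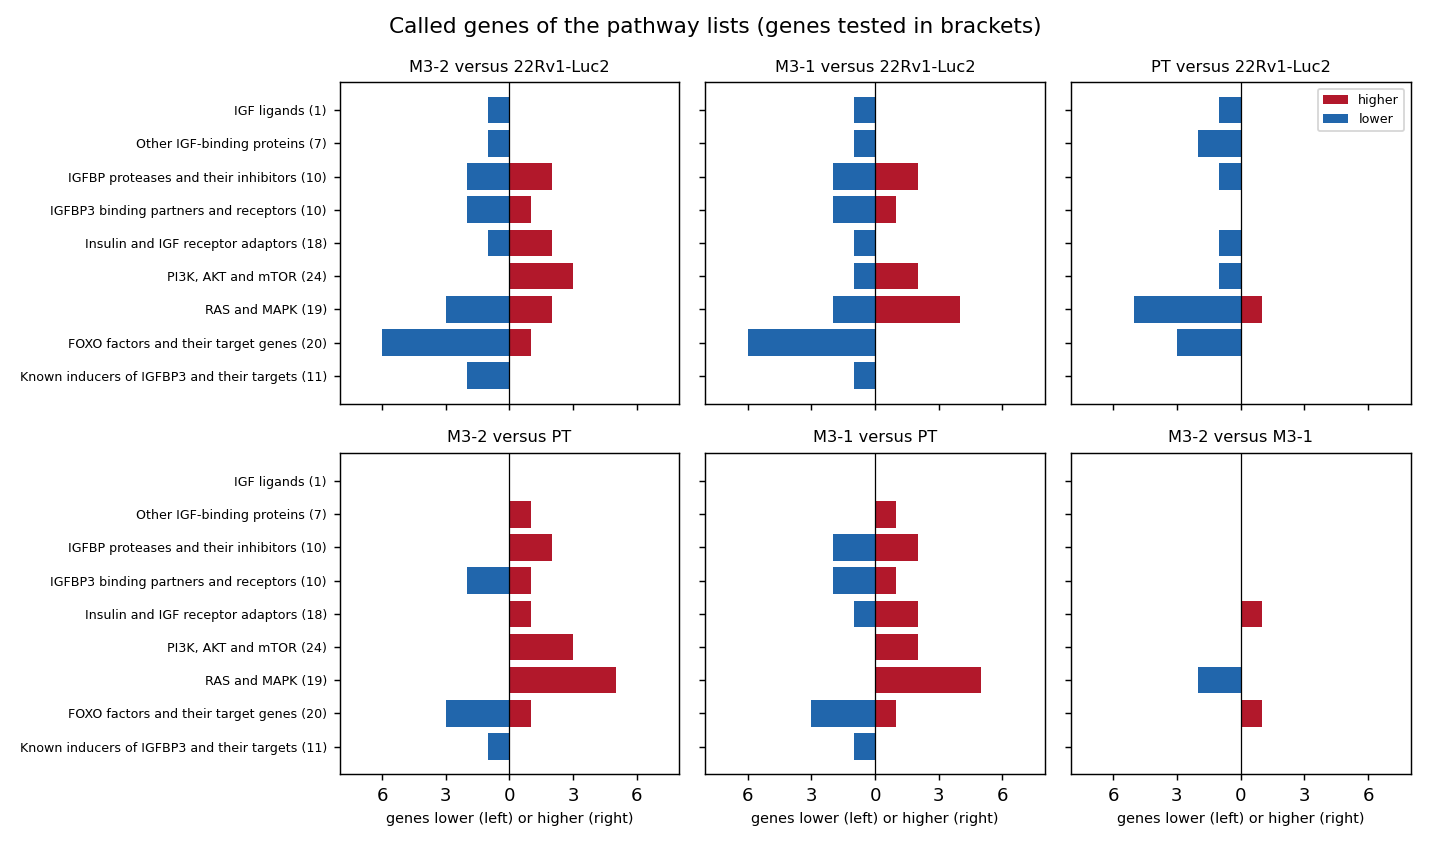
Number of tested genes of each IGF pathway list called higher or lower at a limma adjusted p below 0.05 in each comparison of groups. The FOXO list has 6 lower genes in M3-2 and in M3-1 relative to 22Rv1-Luc2, and the RAS and MAPK list has 5 called genes in each line relative to PT, all of them higher.

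Among the marker lists of other cell types, that of fibroblasts and smooth muscle moved most with the groups. Of 14 fibroblast and smooth muscle genes, 5 were above background on both arrays in M3-2, 5 in M3-1, 5 in PT and 4 in 22Rv1-Luc2, and 9, 9, 9 and 10 were below it on both. Their summed linear intensity was 4444 to 5236 in M3-2, 3825 to 4293 in M3-1 and 1707 to 1856 in PT, against 1527 to 1557 in 22Rv1-Luc2. LUM, the matrix proteoglycan lumican, carried most of this, with 11.52 and 11.85 in M3-2, 11.41 and 11.17 in M3-1, and 8.01 and 8.76 in PT, against 6.55 and 7.21 in 22Rv1-Luc2. Relative to 22Rv1-Luc2, LUM rose 28.0-fold in M3-2 (adjusted p = 4.24e-08), 21.2-fold in M3-1 (1.07e-07) and 2.84-fold in PT (0.00235). Of the 5 genes of this list tested, 3 were higher and 1 lower in M3-2 than in 22Rv1-Luc2. Beside LUM, TAGLN rose 1.69-fold (0.00191) and DCN read at least 1.54-fold higher. DCN was under background on both parental arrays and passed the filter only through the derivatives. It is therefore given with no test, though it is 1 of the 3 higher genes. ACTA2, the smooth muscle actin, was named after its values were seen. In M3-2 it was 1.42-fold lower than in 22Rv1-Luc2 (0.0255), a call lost in 6 of 16 settings. It was also 1.55-fold lower than in M3-1 (0.0234), lost in 4 of 16. COL1A1, the defining collagen of fibroblasts, read 6.74 and 6.73 in M3-2, 6.91 and 6.98 in M3-1, and 7.05 and 6.80 in PT, against 6.85 and 6.77 in 22Rv1-Luc2. Of 8 endothelial markers, 0 were above background on both arrays in any derivative and 1 in 22Rv1-Luc2; of 7 blood cell markers, 2 were in M3-2 and 3 in each other group. Blood cell markers summed to 1562 to 1830 in M3-2, 1907 to 1970 in M3-1 and 1742 to 1877 in PT. In 22Rv1-Luc2 they summed to 1953 to 2244, and the M3-2 sums lay below those of M3-1 and 22Rv1-Luc2. The part of other cells in the IGF axis values was not tested.

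Genes whose values over the 8 arrays were most like those of IGFBP3 were sought among 686 probes, of 584 genes, whose group means spanned at least 1 on the log2 scale. The Pearson r with the brighter IGFBP3 probe was 0.993 for HGF, 0.992 for SNAP25, 0.989 for H19, 0.988 for SUSD2, 0.987 for AP3B2, 0.986 for BRINP1, 0.985 for VGF and 0.978 for RAB3C. The arrays share their groups, and the 2 parental arrays set most of each r: 13.9% of the 686 probes had r above 0.9, and the median was 0.058. SNAP25, a protein of synaptic vesicle fusion, averaged 7.50 ± 0.12 in M3-2, 7.25 ± 0.16 in M3-1 and 7.75 ± 0.01 in PT, against 9.11 ± 0.01 in 22Rv1-Luc2 (SD, n = 2 each). VGF, a neuroendocrine secretory peptide precursor, averaged 12.40 ± 0.14 in M3-2, 11.99 ± 0.19 in M3-1 and 12.42 ± 0.00 in PT, against 13.68 ± 0.11 in 22Rv1-Luc2. HGF, the ligand of MET, averaged 7.34 ± 0.12 in M3-2, 7.01 ± 0.10 in M3-1 and 7.27 ± 0.06 in PT, against 8.43 ± 0.04 in 22Rv1-Luc2. H19, a noncoding RNA from the imprinted locus that also holds IGF2, was above background in 22Rv1-Luc2 only, at 7.02 ± 0.16. H19 and BRINP1 passed the filter on dim probes only through the parental arrays.

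The most opposite genes were TSC22D3 and ABCC3 with an r of -0.982, INPP1 with -0.981 and MAPK13 with -0.973. TSC22D3, which glucocorticoids and FOXO factors induce, averaged 7.76 ± 0.22 in M3-2, 8.03 ± 0.17 in M3-1 and 7.71 ± 0.06 in PT, and was under background at 6.38 ± 0.08 in 22Rv1-Luc2. MAPK13, a p38 kinase of epithelia, averaged 10.61 ± 0.25 in M3-2, 10.79 ± 0.06 in M3-1 and 10.43 ± 0.05 in PT, against 9.28 ± 0.14 in 22Rv1-Luc2. Among the other IGF axis probes above background, r with IGFBP3 was 0.967 for IGFBP5, 0.918 for IRS1, 0.527 for IGFBP2 and 0.037 for IRS2. It was -0.211 for IGF2R and -0.303 for INSR. The IGFBP5 probe passed the filter only through the parental arrays, where IGFBP3 was high too. All these coefficients describe the arrays and carry no test.

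**Figure D5:**
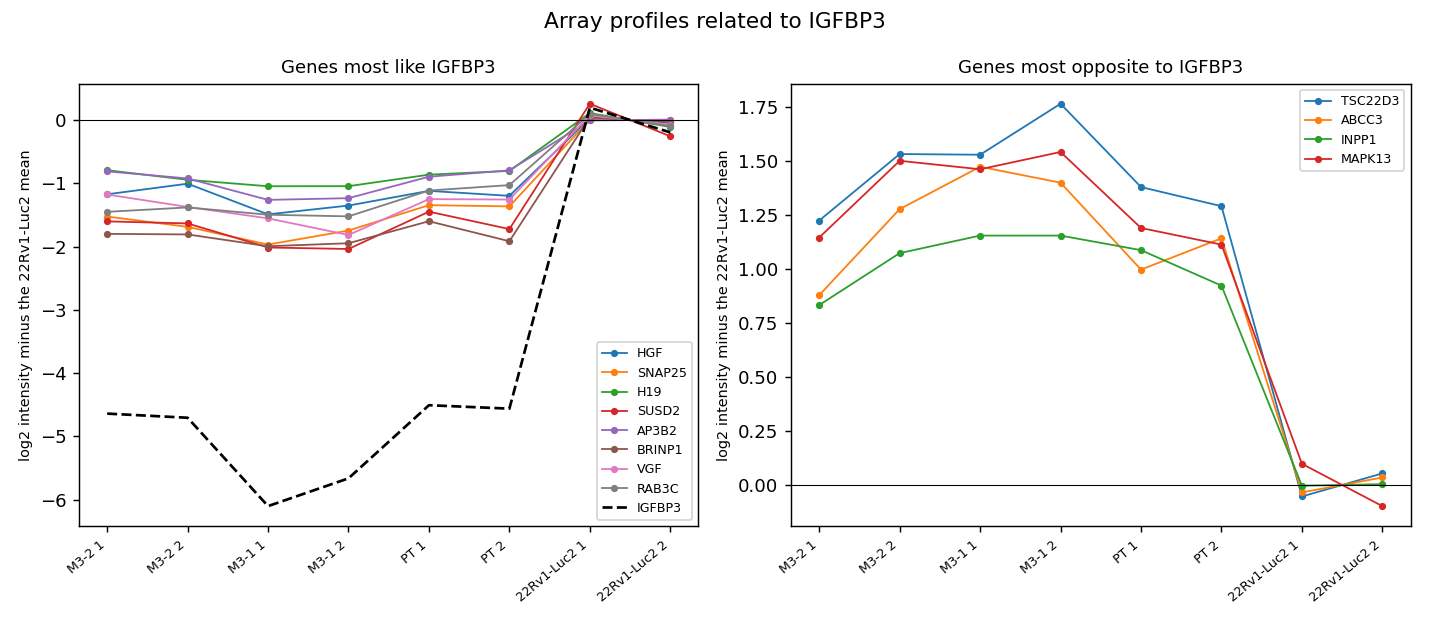
Log2 intensity on each array minus the gene's 22Rv1-Luc2 mean, for IGFBP3 (dashed) with the 8 genes most like it in the left panel and the 4 most opposite to it in the right panel; lines only join the points of a gene. The 2 arrays of 22Rv1-Luc2 stand apart from the 6 arrays of the derivatives for every gene shown, which follows from how the genes were chosen.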

How the data were processed

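Gene expression was measured on 8 Illumina bead arrays in 4 groups of 2, assigned by the sample titles. The authors deposited log2 intensities for 47320 probes, whose arrays shared 1 distribution to within 0.012 at every rank, as after quantile normalization; the sources used here name no software or genome build. The authors' non-normalized table was not used, since its 16 columns match no sample's labels. GEO's platform annotation named the probes, with 1 symbol for 30112, several for 8 and none for 17200; of 209 other pathway and marker genes 190 had a named probe, 138 were above background, and the rest were not analysed here. The background level, 6.53, was the mode of all values (6.11) plus the distance that a share of 0.01 of a background with an SD of 0.181 exceeds.

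Differences were fitted with limma 3.58.1 in R 4.3.3 (lmFit and eBayes, all 4 groups, 4 residual and 8.63 prior degrees of freedom), with Benjamini-Hochberg adjustment over 16853 probes. Simulated data with known changes were used to test the fit. A gene was represented by its brightest probe. Named genes were all members, the 3 genes of each list with the largest called difference, and the 8 most like and 4 most opposite to IGFBP3 in Pearson correlation; others are marked in the text. The members and lists were chosen with earlier results of these data known. Alternatives were other filters, 1 probe per gene, only the groups compared, the replicate number as a block, array weights, an intensity trend and leaving out each array. Replicate numbers were not taken as pairing the samples, since replicate 1 minus 2 did not correlate between all groups: r was 0.52 between PT and 22Rv1-Luc2, 0.15 between M3-2 and 22Rv1-Luc2, 0.18 between M3-2 and PT, and -0.17 to -0.02 in the 3 pairs with M3-1.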

Additional observations from a re-analysis of the deposited data

Results flagged for a closer look

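The metastatic lines M3-2 and M3-1 differed from each other in 2 binding proteins, by a direct limma test of the difference between their shifts from 22Rv1-Luc2. IGFBP3 was higher in M3-2 than in M3-1 by 1.21 on the log2 scale with the probe ILMN_1746085 (adjusted p = 0.00155) and by 1.05 with ILMN_2396875 (adjusted p = 0.00120), higher in both M3-2 arrays than in both M3-1 arrays. The second value is a measured difference against arrays under background. IGFBP2 was higher in M3-2 by 1.00 with ILMN_1725193 (adjusted p = 0.00370), again in both arrays. The arrays of M3-2 and M3-1 did not overlap for 44.3% of all probes, so this separation adds little. The ILMN_1746085 call held in 15 of 16 settings, with a difference of 0.99 without M3-1 replicate 1. The ILMN_2396875 call held in all 15 settings. The IGFBP2 call held in 13 of 16 settings, with differences between 0.93 and 1.07.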

How the results depend on the processing

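Calls of member probes were stable in most settings that kept all arrays, and counts moved mainly when an array was left out. When each array was left out in turn, the count of called member probes ran from 3 to 5 in PT against 22Rv1-Luc2, from 1 to 3 in M3-2 against PT and from 1 to 4 in M3-2 against M3-1. The genes of the 13 lists called with all arrays numbered 38 of 138 in M3-2, 30 in M3-1 and 18 in PT against 22Rv1-Luc2, 26 in M3-2 and 25 in M3-1 against PT, and 6 in M3-2 against M3-1. With 1 array left out these ran from 23 to 42, from 12 to 33, from 6 to 22, from 10 to 33, from 11 to 34 and from 0 to 12 in that order. With only the groups compared in the fit, the list counts were 25 in M3-2 and 9 in PT against 22Rv1-Luc2, 40 in M3-1 against PT and 10 in M3-2 against M3-1. With array weights they were 24 in M3-2 against 22Rv1-Luc2, 41 in M3-1 against PT and 14 in M3-2 against M3-1. The cause was not tested. Leaving out 1 array turned the sign of 4 uncalled member differences among the derivatives. Differences from 22Rv1-Luc2 are not in that count. IGFBP3 (ILMN_2396875) in M3-2 minus PT lay between -0.21 and 0.076, and above 0 without PT replicate 1. IGFBP5 in M3-2 minus M3-1 lay between -0.033 and 0.14, and was below 0 in 2 cases, at -0.01 once M3-2 replicate 1 was dropped. INSR lay between -0.16 and 0.16 in M3-1 minus PT and between -0.25 and 0.075 in M3-2 minus PT. With the replicate block, 3 member probes were called in M3-2 against M3-1, 3 in M3-2 against PT and 4 in M3-1 against PT, as without it, and the list genes called in M3-2 against M3-1 were 9. Dim probes limit what can be seen of IGFBP4, IGFBP6, IGF1R and the ligands.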
